A study of Mus musculus with 18 samples.

Results

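The 47 genes described here encode the machinery that copies DNA and the enzymes and regulators that act in S phase, and they are 47 of the 55450 genes in the deposited count table. They were taken by symbol from a list of replication genes, drawn up with earlier results of these data known, and all of them passed the filter on low counts in every comparison. They fall into 10 roles, which run from the 6 subunits of the MCM helicase to the DNA polymerases, the clamp and its loader, the nucleotide enzymes and the factors that rebuild chromatin behind the fork. RNA was sequenced from 3 mouse cancer lines, each labelled wild type in genotype: 4T1, from a mammary carcinoma, MC38, from a colon adenocarcinoma, and LLC, the Lewis lung carcinoma. Sildenafil citrate, which inhibits the phosphodiesterase PDE5, was given at 100 µM to 4T1 and MC38 cells for 24 hours and to LLC cells for 48 hours. Control cells of each line received the solvent DMSO for the same time, and each of the 6 groups has 3 libraries. The 4T1 cells were grown in RPMI medium and the other lines in DMEM, so line, medium and, for LLC, length of treatment cannot be told apart when lines are compared. Each tumour type is represented by a single cultured line, and the labels do not tie the libraries to separate cultures. P-values here therefore measure spread among libraries that may be technical repeats.

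Replication is prepared in G1, when the origin recognition complex, Cdc6 and Cdt1 load MCM rings onto DNA. It starts in S phase, when the kinase encoded by Cdc7 and cyclin-dependent kinases allow Cdc45 and the GINS complex to turn MCM into an active helicase, behind which the polymerases, the sliding clamp PCNA and its loader RFC copy the strands. Transcription of many of these genes is known to be driven by E2F factors and restrained by the RB family, and it rises as cultured cells pass from G1 into S phase.

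The promoters of 5 MCM subunits and of Cdc6 are printed here because these genes form 1 complex with its loader, were lowered by sildenafil in 4T1, and differ in how many E2F letter matches lie at their start. Each window holds 300 bases of GRCm38.p6 from RefSeq, 250 before and 50 after the annotated start, on the strand of the gene. Capitals mark any of TTTCCCGC, TTTGGCGC, TTTCGCGC or TTTGCCGC on either strand, and matches may overlap.

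Mcm2: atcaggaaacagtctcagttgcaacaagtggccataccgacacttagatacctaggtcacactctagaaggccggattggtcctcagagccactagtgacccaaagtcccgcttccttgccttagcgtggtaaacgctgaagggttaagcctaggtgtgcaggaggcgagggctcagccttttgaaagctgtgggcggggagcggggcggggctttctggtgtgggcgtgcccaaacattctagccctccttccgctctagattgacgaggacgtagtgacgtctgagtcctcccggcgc
Mcm3: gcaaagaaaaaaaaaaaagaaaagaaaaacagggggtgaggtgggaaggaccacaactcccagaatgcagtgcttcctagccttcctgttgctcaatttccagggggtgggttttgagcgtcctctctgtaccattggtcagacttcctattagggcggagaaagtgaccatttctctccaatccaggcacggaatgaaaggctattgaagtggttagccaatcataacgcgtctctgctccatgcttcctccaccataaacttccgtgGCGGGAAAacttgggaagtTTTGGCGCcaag
Mcm5: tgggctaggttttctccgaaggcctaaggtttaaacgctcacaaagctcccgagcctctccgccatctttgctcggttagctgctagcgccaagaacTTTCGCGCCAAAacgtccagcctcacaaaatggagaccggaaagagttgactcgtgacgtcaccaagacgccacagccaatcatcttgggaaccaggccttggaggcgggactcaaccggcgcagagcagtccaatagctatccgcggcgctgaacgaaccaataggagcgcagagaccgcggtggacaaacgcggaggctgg
Mcm6: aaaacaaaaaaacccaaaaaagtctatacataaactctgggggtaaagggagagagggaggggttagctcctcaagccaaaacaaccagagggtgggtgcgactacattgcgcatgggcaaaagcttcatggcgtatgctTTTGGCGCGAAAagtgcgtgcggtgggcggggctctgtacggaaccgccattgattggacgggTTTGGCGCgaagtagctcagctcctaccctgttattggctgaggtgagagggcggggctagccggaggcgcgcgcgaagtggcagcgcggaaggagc
Mcm7: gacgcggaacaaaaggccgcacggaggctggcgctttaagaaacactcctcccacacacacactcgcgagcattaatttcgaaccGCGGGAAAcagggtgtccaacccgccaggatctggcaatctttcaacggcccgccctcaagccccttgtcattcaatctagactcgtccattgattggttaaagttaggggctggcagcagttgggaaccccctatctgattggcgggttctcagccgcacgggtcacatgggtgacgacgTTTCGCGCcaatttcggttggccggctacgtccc
Cdc6: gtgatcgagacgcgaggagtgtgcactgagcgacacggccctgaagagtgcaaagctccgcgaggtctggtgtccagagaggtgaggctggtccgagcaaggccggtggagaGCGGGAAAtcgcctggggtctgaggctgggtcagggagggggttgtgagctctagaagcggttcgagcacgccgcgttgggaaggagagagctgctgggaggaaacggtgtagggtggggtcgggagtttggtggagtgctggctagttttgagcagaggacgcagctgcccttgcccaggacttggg

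The windows lie at chr6:88898731-88899030 (Mcm2, minus strand), chr1:20820263-20820562 (Mcm3, minus), chr8:75109259-75109558 (Mcm5, plus), chr1:128359656-128359955 (Mcm6, minus), chr5:138171834-138172133 (Mcm7, minus, the match-bearing one of its 2 windows) and chr11:98907901-98908200 (Cdc6, plus). Mcm2 holds 0 matches, Cdc6 holds 1, Mcm3, Mcm5 and Mcm7 hold 2 each, and Mcm6 holds 3. In Mcm5 the 2 matches overlap, as do 2 of the 3 in Mcm6. A promoter window was found for 39 of the 47 genes, and 15 of these (38.5%) carry at least 1 match, against 704 of all 27025 genes with a window (2.6%). A CCAAT box lies in the windows of 23 of the 39 genes (59%), against 41.1% of all genes, and the E-box CACGTG in 7 (17.9%), against 8.09%. A match is a description of letters and not of a bound factor.

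Total counts ran from 41070021 to 61600646 per library in 4T1, from 29438187 to 36417399 in MC38 and from 26348654 to 32129771 in LLC. Gm26917, a predicted gene, took between 0.489% and 2.97% of the counts in MC38 and LLC libraries and at most 0.0284% in 4T1. In MC38 it held 0.489, 0.59 and 0.556% of the counts in sildenafil libraries, against 0.89, 1.03 and 1.41% in control libraries. In LLC it held 1.39, 0.716 and 0.588% in sildenafil libraries, against 2.97, 2.15 and 0.967% in control libraries, and LLC control replicate 3 stood apart from the other LLC controls across all genes (chi-square per degree of freedom of 53 and 44.6, against 2.87 to 15.5 for other pairs within a group). Levels are given as CPM, counts relative to the library total after TMM scaling within the line, with 3 libraries a group. For the cell type markers below and the baseline levels per kb, TMM scaling ran over all 18 libraries. The 5 epithelial markers summed to 1783 to 1827 CPM in sildenafil and 2063 to 2127 CPM in control libraries of 4T1, 2024 to 2171 against 2526 to 2589 CPM in MC38, and 182 to 189 against 203 to 228 CPM in LLC, and so were lower under sildenafil in every line. In 4T1 all 5 reached 1 CPM: Krt8, Krt18 and Cdh1 averaged 578, 679 and 411 CPM in sildenafil and 753, 817 and 426 CPM in control libraries, and Epcam and Krt19 averaged 68.3 and 72 CPM in sildenafil and 55.4 and 40.5 CPM in control libraries. In MC38 and LLC the sum was nearly all Krt8, and Epcam was at 0. The colon marker Cdx2 and the lung markers Nkx2-1 and Sftpc were at 0 in every line, and Vil1 (colon) and Scgb1a1 (lung) did not pass 0.0319 CPM. Lgals4 (colon) was highest in MC38, at 0.932 CPM in sildenafil and 0.937 CPM in control libraries. As none of these reached 1 CPM, the labels of MC38 and LLC are not borne out by those markers. Of the mammary markers, Gata3 and Krt14 averaged 78.8 and 4.3 CPM in sildenafil and 60.6 and 4.86 CPM in control libraries of 4T1. Krt5 and Elf5 did not pass 0.0345 CPM there. The summed level of 9 leukocyte markers was 81.8 to 89 CPM in sildenafil and 34.7 to 35.9 CPM in control libraries of 4T1, 9.86 to 10.6 against 5.92 to 6.5 CPM in MC38, and 4.69 to 5.62 against 2.61 to 3.18 CPM in LLC. In each group 2 of the 9 reached 1 CPM (Cd68 and Cd74 in 4T1, Cd68 and Csf1r in MC38, Cd68 and Lyz2 in LLC), Cd3e was at 0 and Ptprc did not pass 0.102 CPM. The 5 fibroblast markers summed to 51.4 to 59.6 CPM in sildenafil and 26.5 to 29.1 CPM in control libraries of 4T1, 91.2 to 94.9 against 100 to 108 CPM in MC38, and 144 to 156 against 67.5 to 76.3 CPM in LLC. Only Pdgfra reached 1 CPM in 4T1 (53.9 against 27.5), and only Pdgfra (127 against 59.9) and Pdgfrb (23.1 against 12.8) in LLC. In MC38, Pdgfra (20 against 16.3) and Pdgfrb (17.7 against 13.9) were higher under sildenafil. Col1a1 (26.6 against 41.9) and Dcn (28.9 against 30.8) were lower there, and Lum did not pass 0.111 CPM in any group. The part of these markers in the results below was not tested.

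Under sildenafil most replication genes were lower in 4T1, few were called in MC38, and many were higher in LLC. In 4T1, 42 of the 47 fell and 0 rose (edgeR quasi-likelihood test, Benjamini-Hochberg adjusted over all 13914 genes, threshold 0.05), where 33.3% of all genes tested fell and 33.5% rose. In either direction 66.7% of all genes were called. The median log2 fold change, sildenafil over control, was -0.35 over the 47 genes and 0.0023 over all genes. At an unadjusted p under 0.05, 42 fell and 1 rose, and DESeq2 called 40 lower and 0 higher. The 5 genes not called in 4T1 were Gins3, Pold3, Rfc3, Rpa3 and Lig1. In bulk RNA a smaller share of cells in S phase and less RNA per cell cannot be told apart. All 42 genes that fell also had every sildenafil library below every control library, which was so for 35.3% of all genes. Without each library in turn, 39 of the 42 calls were kept in every fit. The exceptions were Gins1 (adjusted p from 0.0148 to 0.161), Prim2 (0.0154 to 0.0861) and Pcna (0.00376 to 0.0516). Gins1 was lost without sildenafil replicate 1 or 3 or control replicate 1, 2 or 3, Prim2 without sildenafil replicate 1 or 3 or control replicate 2 or 3, and Pcna without control replicate 3.

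In MC38, 4 of the 47 genes rose and 6 fell, where 19.5% of the 13363 genes tested rose and 18.3% fell. The medians were 0.007 over the 47 genes and 0.004 over all genes. The genes that rose were Gins3, Pcna, Rpa3 and E2f1, and those that fell were Mcm2, Mcm5, Mcm6, Rfc5, Rrm1 and Ccne1. With library totals alone as the scaling, 6 rose and 2 fell. Of the 47 genes, 12 had every sildenafil library below every control library and 6 the reverse, against 23.6% and 25.3% of all genes. The count of 10 came to 6 with DESeq2, to 2 with all 18 libraries in 1 fit and to 1 (Ccne1) with a covariate for the Gm26917 level. Over all genes the calls went from 5047 to 3911, 4158 and 923 in these fits. Gm26917 was lower in every MC38 sildenafil library than in every control, so covariate and treatment cannot be fully told apart. The count of 10 was 6 without control replicate 2, 6 without sildenafil replicate 1 and 5 without sildenafil replicate 2. Over all genes 4397, 4415 and 4026 were then called. Mcm5, Ccne1 and E2f1 were called whichever MC38 library was left out.

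In LLC, 23 of the 47 genes rose and 3 fell (Pola2, Pold2 and Pole), where 15.1% of the 13561 genes tested rose and 12.2% fell. The median was 0.15 over the 47 genes and -0.0062 over all genes. Of the 47 genes, 28 had every sildenafil library above every control library and 3 the reverse, against 23.3% and 20.6% of all genes. The count of 26 was 14 without control replicate 1, 17 without control replicate 2, 13 without sildenafil replicate 2 and 11 without sildenafil replicate 3. Over all genes, where the main fit called 3702, these fits called 2299, 2487, 1999 and 1841. Without control replicate 3, the library that stood apart, the member count was 34 (31 up and 3 down), and 5994 of all genes were called. With a covariate for the Gm26917 level the member count was 11 (9 up and 2 down), and the members' median was 0.086. That fit called 2208 of all genes. The genes called whichever LLC library was left out were Cdc6, Gins2, Gins3, Rfc5, Rpa1, Rpa2, Fen1, Ccne1, Uhrf1 and Chaf1a, all higher, and Pold2, lower. Every other LLC call was lost without at least 1 library.

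**Figure D1:**
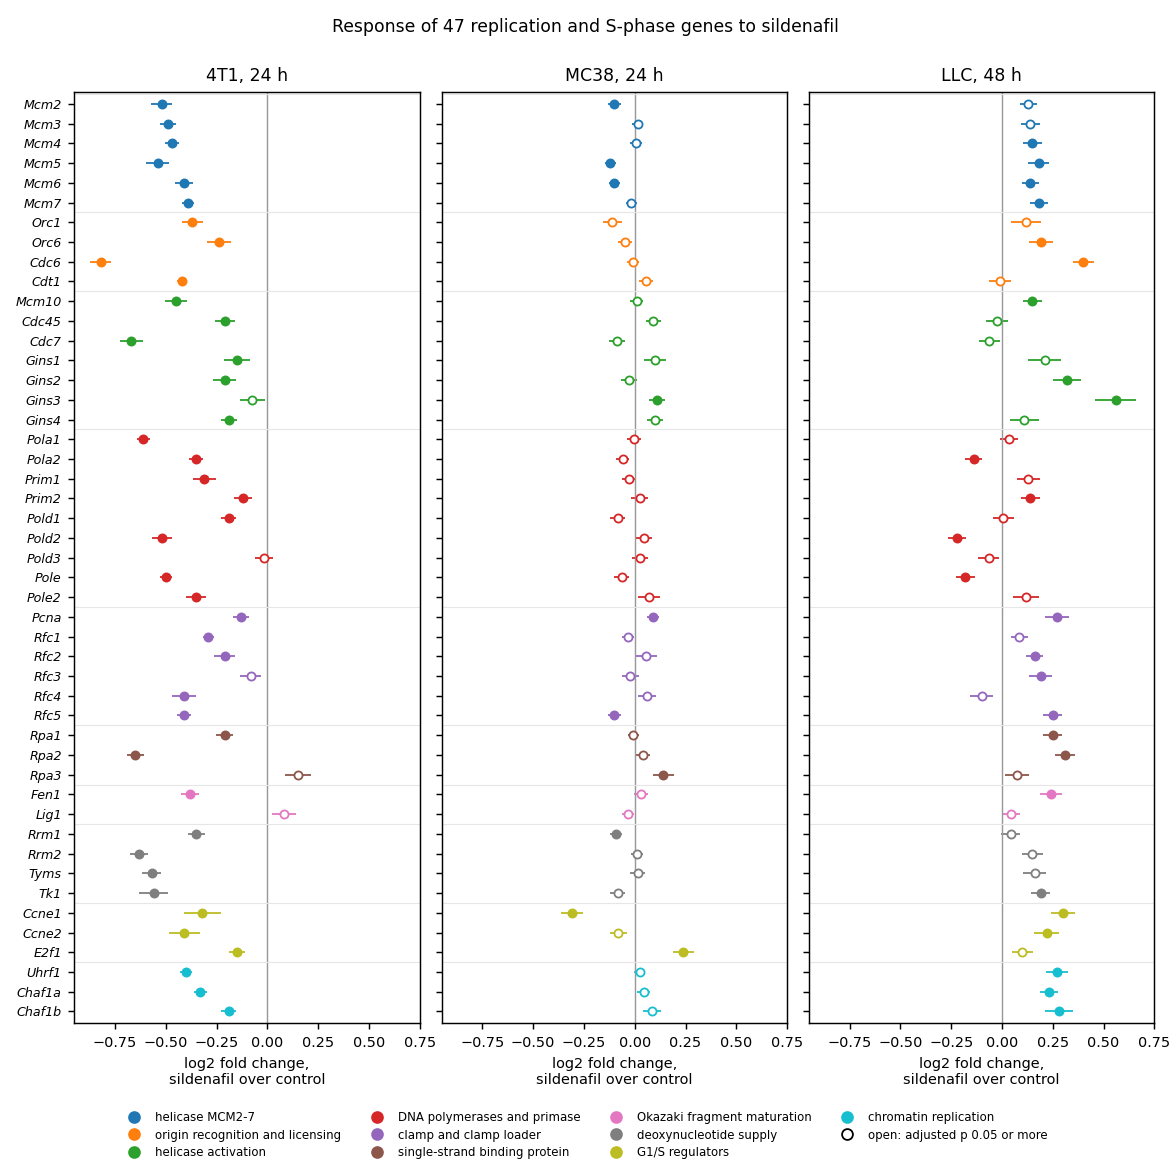
Log2 fold change, sildenafil over control, of each of the 47 genes (rows, coloured by role) in 4T1, MC38 and LLC, with bars of 1 standard error from edgeR and open points where the adjusted p is 0.05 or more. The 4T1 points lie mostly left of 0 (median -0.35), the MC38 points around 0 (median 0.007) and the LLC points mostly right of it (median 0.15).

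Summed over the 47 genes, the level was 3755, 3767 and 3447 CPM in the 4T1 sildenafil libraries, against 4653, 4803 and 4747 CPM in the controls. In MC38 it was 6042, 5998 and 5935 CPM in sildenafil libraries, against 6102, 6089 and 6045 CPM in the controls. In LLC it was 6605, 6788 and 6879 CPM in sildenafil libraries, against 6147, 6157 and 6312 CPM in the controls. The groups did not overlap in any line, but in MC38 the highest sildenafil library, at 6042 CPM, all but met the lowest control, at 6045 CPM. The sum was thus lower under sildenafil in 4T1 and higher in LLC. These sums are scaled within each line, so lines were compared with TMM scaling over all 18 libraries. On that scale 4T1 controls, at 4462, 4603 and 4525 CPM, already stood under the controls of both other lines. Those were at 6389, 6371 and 6344 CPM in MC38 and 6028, 6041 and 6234 CPM in LLC.

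**Figure D2:**
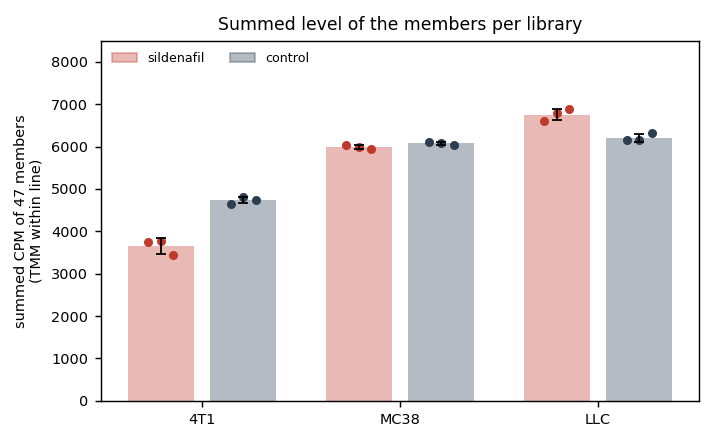
Summed CPM of the 47 genes per library (TMM scaling within the line), with sildenafil left of control in each line; bars are means of 3 libraries, points are libraries and error bars are 1 SD. The means are 3656 and 4734 CPM in 4T1, 5992 and 6078 CPM in MC38, and 6757 and 6205 CPM in LLC, sildenafil before control.

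The MCM2 to MCM7 proteins form the ring that unwinds DNA ahead of the fork, and all 6 genes fell in 4T1, by 0.39 to 0.54 on the log2 scale. In MC38, 3 of them fell by 0.10 to 0.12, and in LLC 4 rose by 0.14 to 0.18. Mcm5 (chromosome 8, 75109569 to 75128439) stood at 212, 212 and 181 CPM in the sildenafil libraries, against 288, 300 and 295 CPM in the controls of 4T1, and fell by 0.54 ± 0.0557 (adjusted p = 1.15e-05). In MC38 it stood at 400, 396 and 391 CPM in the sildenafil libraries, against 430, 440 and 419 CPM in the controls, and fell by 0.12 ± 0.0284 (adjusted p = 0.00375). Its LLC values were 200, 217 and 216 CPM in the sildenafil libraries, against 180, 184 and 196 CPM in the controls, and rose by 0.18 ± 0.0514 (adjusted p = 0.0309). The groups overlapped in no line, so this subunit was lower under sildenafil at 24 hours in both 4T1 and MC38 and higher at 48 hours in LLC. Its LLC call was lost without sildenafil replicate 2 or 3 or control replicate 1 or 2 (adjusted p up to 0.128). Mcm2 stood at 174, 180 and 154 CPM in the sildenafil libraries, against 236, 249 and 247 CPM in the controls of 4T1, and fell by 0.52 ± 0.0512 (adjusted p = 4.17e-06). It also fell by 0.10 ± 0.0322 (adjusted p = 0.0198) in MC38, a call lost without sildenafil replicate 2 or 3 or control replicate 1 or 2 (adjusted p up to 0.111), and stood at 0.13 ± 0.0437 (adjusted p = 0.0552) in LLC. The remaining subunits fell too in 4T1, where Mcm3 fell by 0.49 ± 0.041, Mcm4 fell by 0.47 ± 0.0335, Mcm6 fell by 0.41 ± 0.0438 and Mcm7 fell by 0.39 ± 0.0288. In LLC, Mcm4 rose by 0.15 ± 0.0462, Mcm6 rose by 0.14 ± 0.0432 and Mcm7 rose by 0.18 ± 0.0439, and Mcm3 stood at 0.14 ± 0.048 (adjusted p = 0.0573). The LLC calls of Mcm4 and Mcm6 were each lost without sildenafil replicate 1, 2 or 3 or control replicate 1 or 2. That of Mcm7 was lost without sildenafil replicate 3 or control replicate 1 (adjusted p up to 0.0774). Counts of Mcm7 were not whole numbers in any of the 18 libraries, as happens where RSEM divides reads between genes.

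The genes that load the ring fell together in 4T1, and Cdc6 fell the furthest of all 47. Cdc6 (chromosome 11, 98907801 to 98923940), the ATPase that joins the origin recognition complex to load MCM, stood at 22.7, 21.1 and 19.8 CPM in the sildenafil libraries, against 36.9, 38.3 and 37.6 CPM in the controls of 4T1, and fell by 0.82 ± 0.0508 (adjusted p = 9.16e-09). In MC38 its values were 115, 112 and 113 CPM in the sildenafil libraries, against 115, 115 and 113 CPM in the controls, with a log2 fold change of -0.0091 ± 0.0297 (adjusted p = 0.843). In LLC it stood at 69.1, 72.9 and 73.7 CPM in the sildenafil libraries, against 51.9, 54.7 and 56.7 CPM in the controls, and rose by 0.40 ± 0.0518 (adjusted p = 0.000573). The 4T1 groups were far apart and the MC38 groups overlapped, while in LLC every sildenafil library was the higher. Cdt1 (chromosome 8, 122568015 to 122573554), which loads MCM together with Cdc6, stood at 166, 168 and 165 CPM in the sildenafil libraries, against 222, 221 and 224 CPM in the controls of 4T1, and fell by 0.42 ± 0.0266 (adjusted p = 1.14e-08). It was called neither in MC38, at 0.054 ± 0.0352 (adjusted p = 0.252), nor in LLC, at -0.01 ± 0.0522 (adjusted p = 0.904). Orc1 and Orc6, subunits of the origin recognition complex, fell by 0.37 ± 0.0514 and 0.24 ± 0.059 in 4T1. Only Orc6 was called elsewhere, in LLC, where it rose by 0.19 ± 0.0585 (adjusted p = 0.0343), lost without sildenafil replicate 1, 2 or 3 or control replicate 1 or 2.

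**Figure D3:**
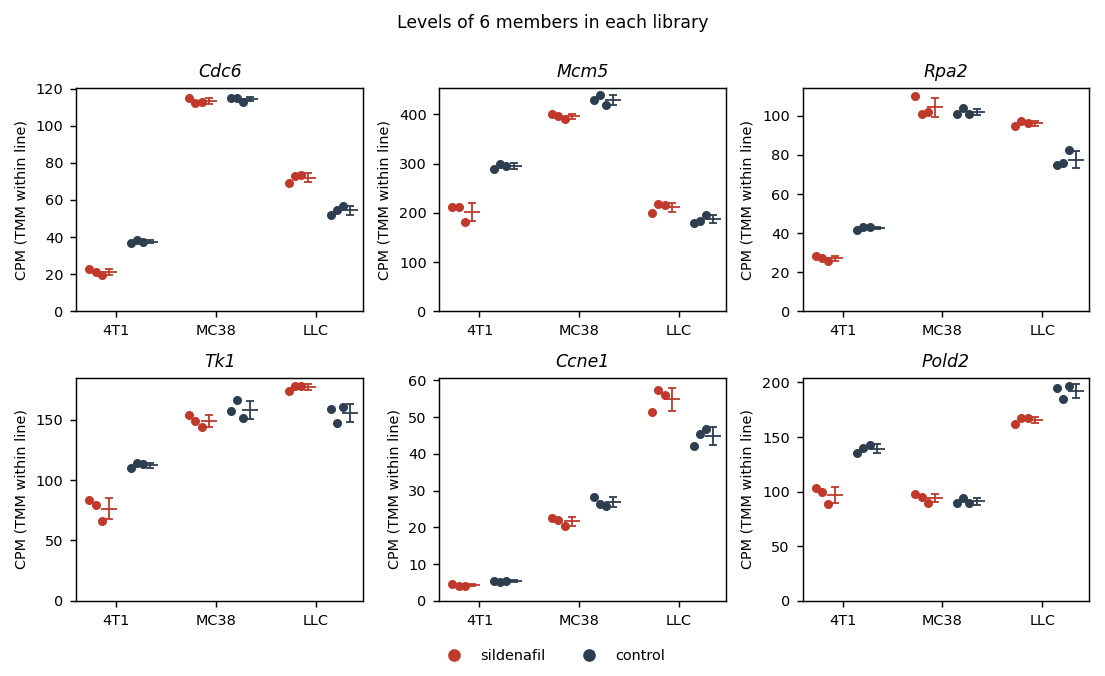
CPM (TMM scaling within the line) of Cdc6, Mcm5, Rpa2, Tk1, Ccne1 and Pold2 in each library, sildenafil left of control in each line, with the mean and 1 SD of 3 libraries beside the points. Cdc6 lies between 19.8 and 22.7 CPM in 4T1 sildenafil libraries, below the 4T1 controls, and between 69.1 and 73.7 CPM in LLC sildenafil libraries, above the LLC controls.

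Of the 7 genes that switch the helicase on, 6 fell in 4T1, 1 rose in MC38 and 3 rose in LLC. Cdc7, the catalytic subunit of the kinase that phosphorylates MCM at origins, stood at 14.7, 14.1 and 13.5 CPM in the sildenafil libraries, against 23.9, 21.8 and 21.7 CPM in the controls of 4T1, and fell by 0.67 ± 0.0561 (adjusted p = 1.83e-07). It was called in neither of the other lines, at -0.085 ± 0.0394 in MC38 and -0.062 ± 0.0532 in LLC. Gins3 (chromosome 8, 95633453 to 95645060), a GINS subunit, was not called in 4T1 and rose in MC38 and LLC. Its 4T1 values were 19.6, 18.9 and 22 CPM in the sildenafil libraries, against 19.9, 22.1 and 21.6 CPM in the controls of 4T1, with a log2 fold change of -0.074 ± 0.0627 (adjusted p = 0.316). In MC38 it stood at 47.6, 47.4 and 48.7 CPM in the sildenafil libraries, against 44.6, 43.8 and 44.5 CPM in the controls, and rose by 0.11 ± 0.0383 (adjusted p = 0.0292), a call lost without sildenafil replicate 1, 2 or 3 or control replicate 1 or 2 (adjusted p up to 0.0865). Its LLC values were 13.6, 11.7 and 12.6 CPM in the sildenafil libraries, against 7.7, 8.49 and 9.53 CPM in the controls, and rose by 0.56 ± 0.1 (adjusted p = 0.00347). The LLC level was low and its error wide, yet the groups did not overlap and the call was kept without each library in turn. Gins2 fell by 0.21 ± 0.0558 in 4T1 and rose by 0.32 ± 0.0688 in LLC, although its exons share 2758 bases with Gse1 on the opposite strand. Gins1 and Gins4 fell by 0.15 ± 0.0638 and 0.19 ± 0.0404 in 4T1 and were called in no other line. Mcm10, an initiation factor that binds the helicase, fell by 0.45 ± 0.0542 in 4T1 and rose by 0.15 ± 0.0445 (adjusted p = 0.0305) in LLC, the LLC call being lost without sildenafil replicate 2 or 3 or control replicate 1. Cdc45, which joins GINS on the MCM ring, fell by 0.21 ± 0.0495 (adjusted p = 0.00194) in 4T1 and was called in no other line.

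Of the 9 polymerase and primase genes, 8 fell in 4T1, 0 were called in MC38 by edgeR or DESeq2 (1 fell at an unadjusted p under 0.05), and in LLC 3 fell and 1 rose. Pola1 (chromosome X, 93304767 to 93632155), the catalytic subunit of polymerase alpha, stood at 60.5, 60 and 59.1 CPM in the sildenafil libraries, against 91.3, 90 and 92.2 CPM in the controls of 4T1, and fell by 0.61 ± 0.0326 (adjusted p = 2.47e-09). It stood at 0.034 ± 0.0444 (adjusted p = 0.597) in LLC. Pold2 (chromosome 11, 5872180 to 5878292), an accessory subunit of polymerase delta, fell in 2 lines. Its values were 103, 99.9 and 88.9 CPM in the sildenafil libraries, against 135, 140 and 143 CPM in the controls of 4T1, where it fell by 0.52 ± 0.0485 (adjusted p = 1.15e-06). In LLC they were 162, 167 and 167 CPM in the sildenafil libraries, against 195, 185 and 197 CPM in the controls, where it fell by 0.22 ± 0.0437 (adjusted p = 0.00559). The MC38 groups overlapped, at 97.6, 95 and 89.8 CPM in the sildenafil libraries, against 89.6, 94.5 and 89.3 CPM in the controls. Pole, the catalytic subunit of polymerase epsilon, fell by 0.50 ± 0.031 in 4T1 and fell by 0.18 ± 0.0463 (adjusted p = 0.0164) in LLC, and Pola2, the regulatory subunit of polymerase alpha, fell by 0.35 ± 0.0351 and 0.14 ± 0.0439 (adjusted p = 0.0402). The LLC call of Pole was lost without sildenafil replicate 2 or 3 or control replicate 1, and that of Pola2 without sildenafil replicate 1, 2 or 3 or control replicate 1 or 2. These 3 polymerase genes were the only members to fall in both 4T1 and LLC, 6.38% of the 47 beside 6.06% of the 11274 genes tested in all lines. Prim1, the catalytic primase subunit, fell by 0.31 ± 0.058 in 4T1 and was called in no other line. Prim2 fell by 0.12 ± 0.0447 in 4T1 and rose by 0.14 ± 0.0466 in LLC. Its 4T1 call was lost without sildenafil replicate 1 or 3 or control replicate 2 or 3. Its LLC call was lost without sildenafil replicate 1, 2 or 3 or control replicate 1 or 2, and was not made by DESeq2. Pold1, the catalytic subunit of polymerase delta, fell by 0.19 ± 0.0377 in 4T1. Pold3, a further delta subunit, was called in no line, with log2 fold changes of -0.016 ± 0.0448 in 4T1, 0.025 ± 0.0381 in MC38 and -0.065 ± 0.0519 in LLC. Pole2 fell by 0.35 ± 0.0487 in 4T1, with counts that were not whole numbers in any library.

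Of the 6 genes of the sliding clamp and its loader, 5 fell in 4T1, 1 rose and 1 fell in MC38, and 4 rose in LLC. Pcna, the clamp that holds polymerases on DNA, was one of 2 members that fell in 4T1 and rose in MC38, 4.26% of the 47 beside 2.95% of all genes. It fell by 0.13 ± 0.0395 (adjusted p = 0.0125) in 4T1, rose by 0.091 ± 0.0296 (adjusted p = 0.0241) in MC38 and rose by 0.27 ± 0.058 (adjusted p = 0.00781) in LLC. The MC38 call was lost without sildenafil replicate 1 or 2 or control replicate 3 (adjusted p up to 0.0919), and with a covariate for the Gm26917 level the MC38 value was -0.032 (adjusted p = 0.841). The LLC call was lost without sildenafil replicate 3 (adjusted p up to 0.0502). Counts of Pcna, which has processed copies elsewhere in the genome, were not whole numbers in any library. Rfc5, a small subunit of the clamp loader, stood at 46.1, 46.5 and 43.7 CPM in the sildenafil libraries, against 60.4, 61.5 and 59.5 CPM in the controls of 4T1, and fell by 0.41 ± 0.0363 (adjusted p = 2.86e-07). In LLC it stood at 99.7, 103 and 106 CPM in the sildenafil libraries, against 84.5, 85.8 and 89.4 CPM in the controls, and rose by 0.25 ± 0.0467 (adjusted p = 0.00411). Here the sildenafil libraries were all below the controls in 4T1 and all above them in LLC. In MC38 it fell by 0.10 ± 0.0328 (adjusted p = 0.0295), a call lost without sildenafil replicate 1 or 2 or control replicate 1 or 2. Rfc4 stood at 40.7, 41.6 and 35.9 CPM in the sildenafil libraries, against 49.3, 52.7 and 55.4 CPM in the controls of 4T1, fell by 0.41 ± 0.0575 (adjusted p = 4.33e-05), and was called in no other line. Rfc1, the large subunit, fell by 0.29 ± 0.028 in 4T1 and was called in no other line. Rfc2 fell by 0.21 ± 0.0505 in 4T1 and rose by 0.16 ± 0.0427 in LLC, and Rfc3 was called in LLC and in no other line, where it rose by 0.19 ± 0.0578 (adjusted p = 0.0335). Of the 5 loader genes, 4 therefore fell in 4T1 and 3 rose in LLC. The LLC call of Rfc2 was lost without sildenafil replicate 2 or 3 or control replicate 1. That of Rfc3 was lost without sildenafil replicate 1, 2 or 3 or control replicate 1 or 2. On the opposite strand, exons of Rfc2 share 952 bases with Lat2 and those of Rfc5 share 499 bases with Wsb2.

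Of the 3 subunits of RPA, which coats single-stranded DNA, 2 fell in 4T1, 1 rose in MC38 and 2 rose in LLC. Rpa2 (chromosome 4, 132768332 to 132778752) stood at 28.4, 27.1 and 25.9 CPM in the sildenafil libraries, against 41.8, 42.9 and 42.9 CPM in the controls of 4T1, and fell by 0.65 ± 0.0433 (adjusted p = 2.04e-08). Its LLC values were 94.7, 97.4 and 96.2 CPM in the sildenafil libraries, against 74.6, 75.8 and 82.5 CPM in the controls, and rose by 0.31 ± 0.0505 (adjusted p = 0.00216). The groups were apart in both lines and overlapped in MC38, at 110, 101 and 102 CPM in the sildenafil libraries, against 101, 104 and 101 CPM in the controls. Rpa1, the large subunit, stood at 152, 154 and 139 CPM in the sildenafil libraries, against 165, 178 and 174 CPM in the controls of 4T1, and fell by 0.21 ± 0.0415 (adjusted p = 0.000473). In LLC it stood at 287, 283 and 292 CPM in the sildenafil libraries, against 231, 252 and 243 CPM in the controls, and rose by 0.25 ± 0.0474 (adjusted p = 0.00454). Rpa3, the small subunit, was called only in MC38, where it rose by 0.14 ± 0.0519 (adjusted p = 0.0468), a call lost without sildenafil replicate 1 or 3 or control replicate 1, 2 or 3. Its 4T1 value was 0.15 ± 0.0656 (adjusted p = 0.0582).

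Fen1 and Lig1 trim and seal the fragments of the lagging strand, and only Fen1 was called. Fen1 stood at 39.4, 39.5 and 35.9 CPM in the sildenafil libraries, against 48, 50.9 and 51.1 CPM in the controls of 4T1, and fell by 0.38 ± 0.0453 (adjusted p = 5.21e-06). Its LLC values were 115, 123 and 117 CPM in the sildenafil libraries, against 95.4, 98.5 and 106 CPM in the controls, and rose by 0.24 ± 0.0529 (adjusted p = 0.00864). The groups did not overlap in either line, and 1909 exon bases of Fen1 are shared with Gm10143 on the opposite strand. Lig1 stood at 83.6, 86.8 and 74.6 CPM in the sildenafil libraries, against 79.9, 79.8 and 72 CPM in the controls of 4T1, with a log2 fold change of 0.081 ± 0.0576 (adjusted p = 0.237). The 4T1 groups overlapped, and Lig1 was called in no line, at -0.034 ± 0.0282 in MC38 and 0.046 ± 0.0425 in LLC.

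All 4 deoxynucleotide genes fell in 4T1, where 33.3% of genes did. Rrm2, the small subunit of ribonucleotide reductase, stood at 93, 92 and 84.2 CPM in the sildenafil libraries, against 131, 144 and 141 CPM in the controls of 4T1, and fell by 0.63 ± 0.0442 (adjusted p = 3.91e-08). In LLC it stood at 310, 339 and 351 CPM in the sildenafil libraries, against 298, 305 and 299 CPM in the controls, without overlap but with 0.15 ± 0.0538 (adjusted p = 0.0635). Rrm1, the large subunit, fell by 0.35 ± 0.0425 (adjusted p = 8.99e-06) in 4T1 and fell by 0.092 ± 0.0273 (adjusted p = 0.015) in MC38, the MC38 call being lost without sildenafil replicate 2 or control replicate 1. The reductase subunits thus both fell in 4T1, Rrm2 by the larger amount. Tyms, which makes thymidylate, stood at 51.5, 52.6 and 46.7 CPM in the sildenafil libraries, against 72.6, 77.1 and 74.5 CPM in the controls of 4T1, and fell by 0.57 ± 0.0451 (adjusted p = 9.81e-08). Tk1 (chromosome 11, 117815526 to 117826092), the thymidine kinase of S phase, stood at 83.1, 79.3 and 66.5 CPM in the sildenafil libraries, against 110, 114 and 113 CPM in the controls of 4T1, and fell by 0.56 ± 0.0723 (adjusted p = 0.000131). In MC38 the Tk1 groups overlapped, at 154, 149 and 144 CPM in the sildenafil libraries, against 157, 166 and 151 CPM in the controls. Its LLC values were 174, 178 and 178 CPM in the sildenafil libraries, against 159, 147 and 160 CPM in the controls, and rose by 0.19 ± 0.0463 (adjusted p = 0.0152), all sildenafil libraries lying above the controls. That LLC call was lost without sildenafil replicate 2 or 3 or control replicate 2 (adjusted p up to 0.0727).

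Among the regulators, the cyclin E genes and E2f1 each fell in 4T1. Ccne1 (chromosome 7, 38097984 to 38107534), a cyclin that drives entry into S phase with CDK2, was a low gene in 4T1, at 4.66, 4.06 and 4.15 CPM in the sildenafil libraries, against 5.54, 5.19 and 5.44 CPM in the controls, and fell by 0.32 ± 0.0909 (adjusted p = 0.00627). In MC38 it stood at 22.6, 21.9 and 20.4 CPM in the sildenafil libraries, against 28.3, 26.5 and 25.7 CPM in the controls, and fell by 0.31 ± 0.055 (adjusted p = 0.000352). In LLC it stood at 51.4, 57.4 and 55.9 CPM in the sildenafil libraries, against 42.1, 45.4 and 46.8 CPM in the controls, and rose by 0.30 ± 0.0605 (adjusted p = 0.00657). The MC38 and LLC changes were of like size and opposite sign, and the groups overlapped in neither line. Ccne2 stood at 12.6, 12.7 and 10.4 CPM in the sildenafil libraries, against 15.5, 17 and 15.3 CPM in the controls of 4T1, and fell by 0.41 ± 0.076 (adjusted p = 0.000319). In LLC it rose by 0.22 ± 0.0629 (adjusted p = 0.028), a call lost without sildenafil replicate 1, 2 or 3 or control replicate 1 or 2, and its exons share 609 bases with Ints8 on the opposite strand. E2f1, a transcription factor of S-phase genes, fell by 0.15 ± 0.0411 (adjusted p = 0.00557) in 4T1, rose by 0.24 ± 0.0507 (adjusted p = 0.00157) in MC38 and stood at 0.10 ± 0.0522 (adjusted p = 0.196) in LLC. It was the other gene, beside Pcna, that fell in 4T1 and rose in MC38.

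The 3 genes that restore chromatin behind the fork fell in 4T1 and rose in LLC, with 0 called in MC38 by edgeR, by DESeq2 or at an unadjusted p under 0.05. Uhrf1, which guides the maintenance methyltransferase to new DNA, stood at 140, 140 and 132 CPM in the sildenafil libraries, against 182, 183 and 181 CPM in the controls of 4T1, and fell by 0.40 ± 0.0311 (adjusted p = 7.66e-08). Its LLC values were 350, 362 and 386 CPM in the sildenafil libraries, against 317, 300 and 296 CPM in the controls, and rose by 0.27 ± 0.0526 (adjusted p = 0.00542). Chaf1a, the large subunit of the histone chaperone CAF-1, stood at 101, 103 and 99.1 CPM in the sildenafil libraries, against 129, 127 and 127 CPM in the controls of 4T1, and fell by 0.33 ± 0.0304 (adjusted p = 3.99e-07). In LLC it stood at 147, 150 and 151 CPM in the sildenafil libraries, against 124, 126 and 133 CPM in the controls, and rose by 0.23 ± 0.0453 (adjusted p = 0.00549). Both genes had groups that did not overlap in these lines, and 4648 exon bases of Chaf1a are shared with Ubxn6 on the opposite strand. Chaf1b, the partner subunit, fell by 0.19 ± 0.0374 (adjusted p = 0.000435) in 4T1 and rose by 0.28 ± 0.067 (adjusted p = 0.0139) in LLC, where the call was lost without sildenafil replicate 2 or 3.

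The responses of the lines were compared by testing the difference between their log2 fold changes on all 18 libraries. LLC less 4T1 was higher for 44 of the 47 genes and lower for 0, where 21.8% of 16040 genes were higher and 20.2% lower, and the median difference was 0.48 over the 47 genes and -0.03 over all genes. At an unadjusted p under 0.05 and with DESeq2 the counts were also 44 and 0. MC38 less 4T1 was higher for 36 and lower for 0 (17.9% of all genes higher, 34.6% in either direction), with a median of 0.30 against -0.0025, and 39 were higher and 0 lower at an unadjusted p under 0.05, 36 and 0 with DESeq2. LLC less MC38 was higher for 22 and lower for 1, Pold2 (12.6% and 9.68% of all genes), with a median of 0.16 against -0.0021. The 3 tests share libraries and are not independent of each other. Cdc6 had the largest difference between LLC and 4T1, 1.22 ± 0.0666 (adjusted p = 3.04e-12), followed by Rpa2 at 0.95 ± 0.0647 (adjusted p = 8.05e-11), Rrm2 at 0.78 ± 0.0669 (adjusted p = 3.29e-09) and Tk1 at 0.74 ± 0.0843 (adjusted p = 4.09e-07). The genes without a called difference between LLC and 4T1 were Pold3 (-0.049 ± 0.0641), Rpa3 (-0.076 ± 0.0904) and Lig1 (-0.035 ± 0.0673), 1 subunit or enzyme each of polymerase delta, RPA and the ligation step. Of the 44 differences, 42 were called whichever library was left out. Cdc45 (adjusted p = 0.0389, up to 0.103 without 1 library) and Pold1 (0.0162, 0.0539 without 4T1 control replicate 2) were not. The call of Cdc45 was lost without LLC control replicate 1 or 2, any LLC sildenafil library, 4T1 control replicate 1 or 2, or 4T1 sildenafil replicate 3. Between MC38 and 4T1, Cdc6 differed by 0.80 ± 0.0651 (adjusted p = 2.8e-09) and Ccne1 by -0.0059 ± 0.105 (adjusted p = 1). Between LLC and MC38, Ccne1 differed by 0.62 ± 0.0844 (adjusted p = 1.06e-05) and Cdc6 by 0.43 ± 0.064 (adjusted p = 3.88e-05). Whichever library was left out, 31 of the 36 differences between MC38 and 4T1 and 14 of the 23 between LLC and MC38 were called. As LLC was treated for 48 hours and the others for 24 hours, line and time cannot be told apart in any comparison with LLC.

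**Figure D4:**
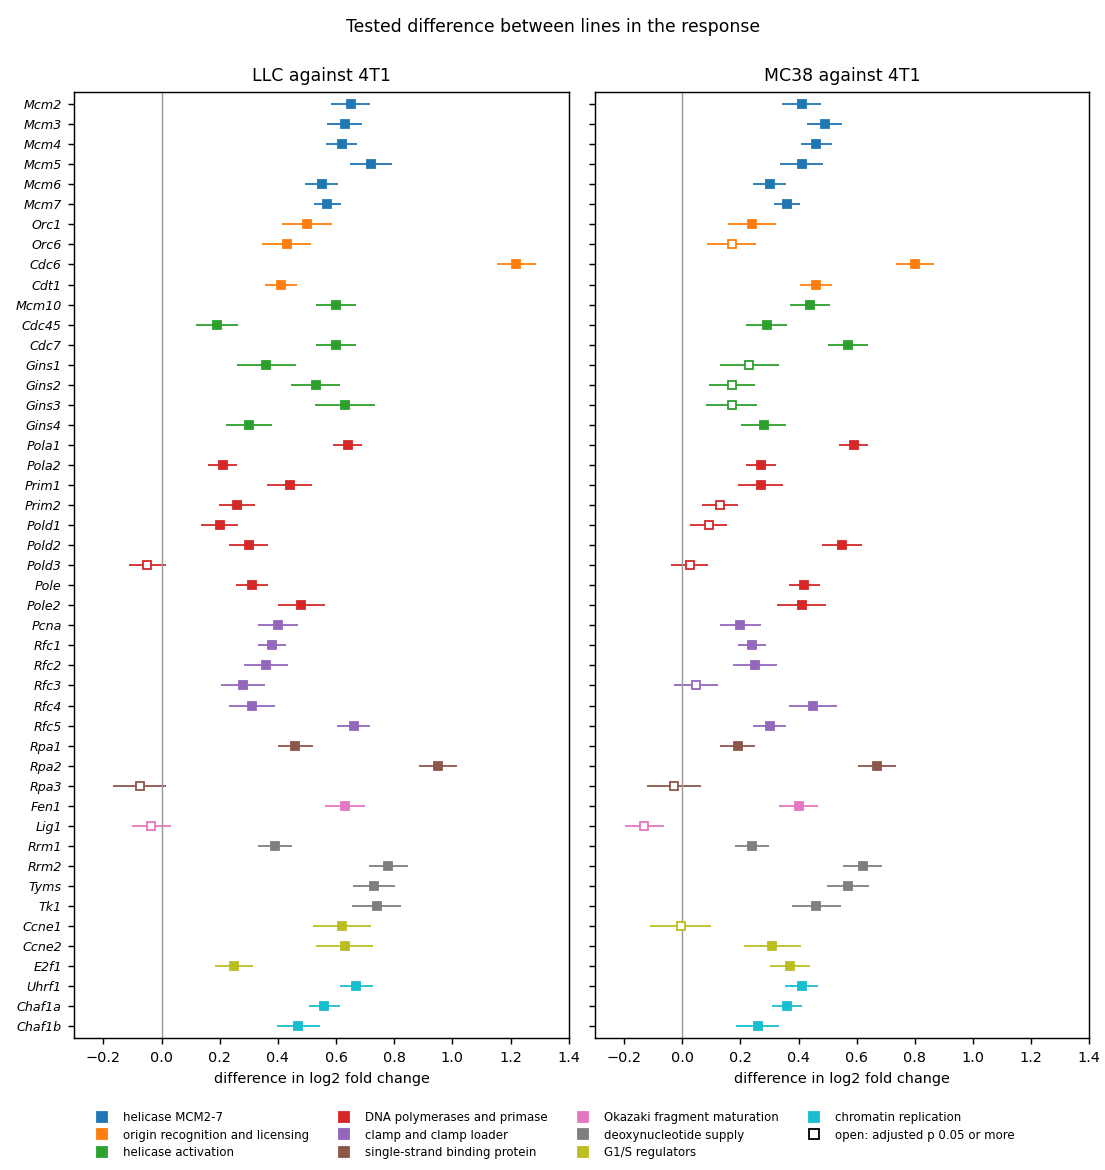
Difference in log2 fold change between lines for each of the 47 genes, LLC less 4T1 (left) and MC38 less 4T1 (right), with bars of 1 standard error and open squares where the adjusted p is 0.05 or more. Cdc6 stands furthest right in both panels (1.22 and 0.80), and Pold3, Rpa3 and Lig1 are open squares near 0 on the left.

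Of the 47 genes, 21 (44.7%) fell in 4T1 and rose in LLC, against 481 of the 11274 genes tested in all 3 lines (4.27%). The reverse pattern held for 0 of the 47, against 2.8% of all genes. Of the 21, Cdc6, Gins2, Rfc5, Rpa1, Rpa2, Fen1, Ccne1, Uhrf1 and Chaf1a kept both calls whichever library was left out. The rest of the 21 lost the LLC call without at least 1 library. Gins3 and Pcna rose in both MC38 and LLC, 4.26% of the 47 beside 7.03% of all genes. DESeq2 called neither of them higher in MC38, and both MC38 calls were lost in some fits with 1 library left out. Mcm5, Mcm6, Rfc5 and Ccne1 fell in both 4T1 and MC38 and rose in LLC, and fall in MC38 with rise in LLC covered 8.51% of the 47 and 1.7% of all genes. Among these genes only Ccne1 kept its call in all 3 lines whichever library was left out. The lines have separate controls, but LLC differs from the others in time as well. Pold3 and Lig1 were called in no line, and 0 of the 47 changed in the same direction in all 3 lines, against 7.95% of all genes. Both counts of 0 were also 0 at an unadjusted p under 0.05 in each line and with DESeq2. Of the genes with the opposed pattern, 5 of the 16 with a promoter window (31.2%) carried a match, against 10 of the 23 other members with a window (43.5%). In 4T1 the median log2 fold change was -0.39 over the 15 genes with a match and -0.35 over the 24 without, and in LLC it was 0.14 and 0.15. Among the genes with a printed promoter, the 4T1 log2 fold change was -0.52 for Mcm2 (0 matches) and -0.82 for Cdc6 (1 match). It was -0.49, -0.54 and -0.39 for Mcm3, Mcm5 and Mcm7 (2 matches each) and -0.41 for Mcm6 (3 matches).

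At baseline, in control libraries, 4T1 held less of most of these RNAs than the other lines. In 4T1 against MC38, 33 of the 47 genes were lower and 10 higher, where 42.1% of all genes were lower and 42.7% higher (84.8% in all), and the median log2 difference was -0.64 over the 47 genes and 0 over all genes. In 4T1 against LLC, 34 were lower and 8 higher (41.3% and 45.8% of all genes, 87% in all), with a median of -0.51 against 0.066. MC38 against LLC gave 20 higher and 16 lower (39% and 38%, 77% in all), with a median of 0.044 against -0.002, and 15 higher and 19 lower with library totals alone. Genes differ in length, so levels were set side by side as CPM per kb of the principal transcript. Pcna was the highest member in 4T1 (167 ± 3.03, mean ± SD of 3 libraries) and in MC38 (169 ± 4.81), and Mcm6 in LLC (158 ± 1.27). Per kb of all exons Pcna remained highest in 4T1, but the highest was Mcm5 in MC38 (113, against 107 for Pcna) and Rrm2 in LLC (107, against 98.7 for Mcm6). Pcna in LLC stood at 102 ± 6.92. The lowest member was Ccne1 in 4T1 (2.58 ± 0.0841), E2f1 in MC38 (8.54 ± 0.175) and Gins3 in LLC (3.35 ± 0.372), and per kb of all exons Pole2 (7.32) was below E2f1 (7.4) in MC38. Ccne1 stood at 14.1 ± 0.663 in MC38 and 22 ± 1.26 in LLC, and its baseline difference of 4T1 from LLC, -3.09 ± 0.0684 (adjusted p = 1.7e-21), was the largest of the 47. The order 4T1, MC38, LLC from low to high was free of overlap for this cyclin.

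Subunits of 1 complex did not stand at even levels. GINS has 4 subunits, and in LLC controls Gins4 stood at 24.8 ± 2.28 CPM per kb, Gins1 at 18.2 ± 2.05, Gins2 at 5.16 ± 0.424 and Gins3 at 3.35 ± 0.372. In MC38 the values were 42.5 ± 1.68 for Gins4, 18.6 ± 0.139 for Gins1, 14.2 ± 0.321 for Gins2 and 18.4 ± 0.202 for Gins3, and Gins1 and Gins3 did not differ beyond their spread there, although per kb of all exons they stood at 13.4 and 17.1. The baseline level of Gins3 was higher in MC38 than in LLC by 2.46 ± 0.0727 (adjusted p = 5.68e-19). Among the MCM genes, 4T1 controls ran from 40.7 ± 1.02 (Mcm4) to 111 ± 2.61 (Mcm6), MC38 controls from 66.2 ± 1.17 (Mcm4) to 133 ± 3.09 (Mcm5) and LLC controls from 54.3 ± 2.6 (Mcm5) to 158 ± 1.27 (Mcm6). Per kb of all exons Mcm5 was still the top MCM gene in MC38, but Mcm2 was the lowest in each line and Mcm5 the highest in 4T1 (70.5, against 69.2 for Mcm6). At baseline Mcm5 was higher in MC38 than in LLC by 1.29 ± 0.0523 (adjusted p = 2.1e-16). Such orders depend on the transcript taken, and Mcm2 in 4T1 stood at 69.2 ± 1.87 per kb of its principal transcript and at 33.5 per kb of all its exons. Cdc6 stood at 14.1 ± 0.259 in 4T1, 46.7 ± 0.474 in MC38 and 20.9 ± 0.99 in LLC. Its partner Cdt1 ran the other way in 4T1, at 97.2 ± 0.485 there, 52.6 ± 1.24 in MC38 and 39 ± 2.37 in LLC. Pola1 was highest in LLC, at 44.4 ± 1.53, against 16.3 ± 0.158 in 4T1 and 19.6 ± 0.566 in MC38. Levels of Chaf1b overlapped between all 3 lines, at 24.2 ± 0.577 in 4T1, 24.6 ± 1.07 in MC38 and 24.1 ± 2.11 in LLC.

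**Figure D5:**
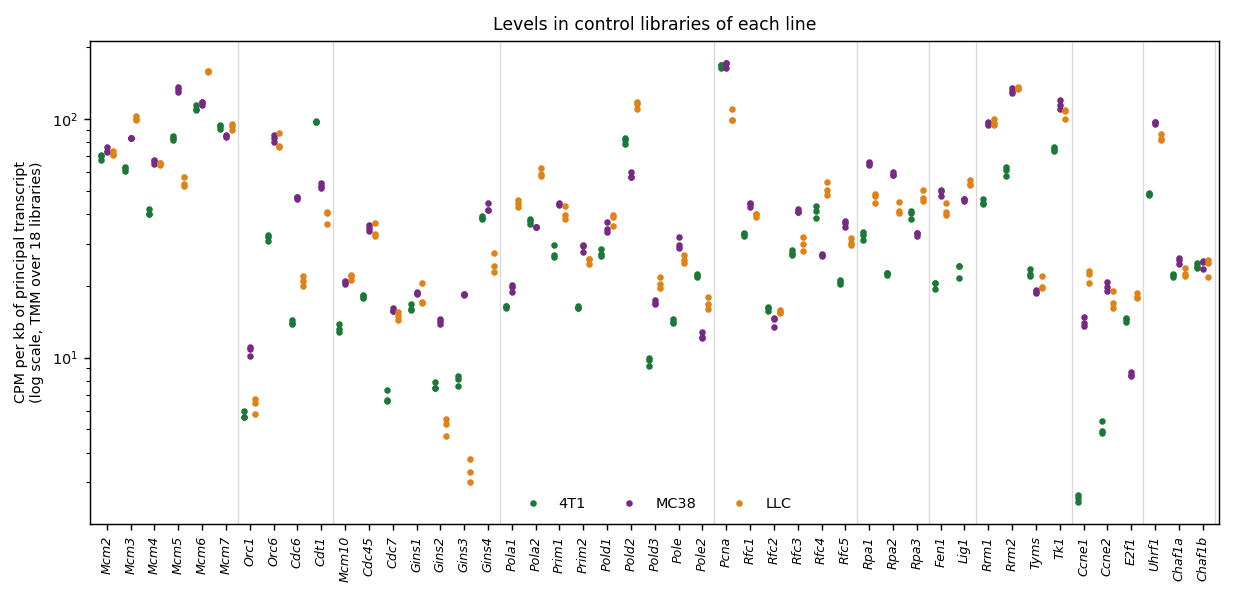
CPM per kb of the principal transcript (log axis, TMM scaling over 18 libraries) of each of the 47 genes in the 3 control libraries of 4T1, MC38 and LLC; each point is a library and grey lines part the roles. Ccne1 lies lowest in 4T1 (mean 2.58) and Gins3 lowest in LLC (mean 3.35), while Pcna lies highest in 4T1 (mean 167).

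Genes of the same pathway outside the 47 were counted from lists of known function, with 33.3%, 18.3% and 12.2% of all genes falling in 4T1, MC38 and LLC and 33.5%, 19.5% and 15.1% rising. Other origin licensing and firing genes fell in 13 of 15 cases in 4T1, with 0 that rose (edgeR, DESeq2 and an unadjusted p under 0.05 alike). In MC38, 4 rose and 3 fell, and in LLC 1 rose and 3 fell. Orc2, an origin recognition subunit, averaged 55.6 ± 0.96 CPM in sildenafil and 121 ± 3.12 CPM in control libraries of 4T1, and fell by 1.12 ± 0.0342 (adjusted p = 1.29e-11). It fell by 0.17 ± 0.0329 in MC38 and stood at -0.084 ± 0.0606 (adjusted p = 0.32) in LLC, so that unlike Orc6 it was not called higher there. Wdhd1, a fork protein that tethers polymerase alpha, fell by 0.76 ± 0.039 (adjusted p = 1.59e-09) in 4T1, and Mtbp, a partner of Ticrr at origins, fell by 0.61 ± 0.0367 in 4T1, rose by 0.18 ± 0.0426 in MC38 and fell by 0.20 ± 0.051 in LLC. Of 32 other fork and repair-coupled genes 27 fell and 2 rose in 4T1, 7 fell and 2 rose in MC38, and 3 fell and 7 rose in LLC. Dnmt1, the maintenance methyltransferase that Uhrf1 recruits, averaged 295 ± 3.44 CPM in sildenafil and 433 ± 3.93 CPM in control libraries of 4T1, fell by 0.56 ± 0.0269 (adjusted p = 9.15e-10), and stood at -0.0072 ± 0.0458 (adjusted p = 0.924) in LLC. The remodeller gene Hells fell by 0.70 ± 0.0309 (adjusted p = 3.62e-10) in 4T1. Of 27 other nucleotide supply genes 22 fell and 2 rose in 4T1, 20 fell and 1 rose in MC38, and 9 fell and 4 rose in LLC. The purine synthesis gene Gart averaged 121 ± 5.76 CPM in sildenafil and 253 ± 7 CPM in control libraries of 4T1, and fell by 1.06 ± 0.037 (adjusted p = 4.25e-11). It also fell by 0.34 ± 0.0292 (adjusted p = 3.34e-07) in MC38 and fell by 0.18 ± 0.0423 (adjusted p = 0.013) in LLC, as did Pfas, a further purine enzyme, by 0.97 ± 0.0333 in 4T1, 0.21 ± 0.0286 in MC38 and 0.22 ± 0.0475 in LLC. Mthfd1, a folate enzyme, fell by 0.94 ± 0.0352 in 4T1 and fell by 0.30 ± 0.0312 in MC38. Gart and Pfas thus fell in all 3 lines.

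In the E2F and RB family, 11 of 16 genes fell and 3 rose in 4T1, 4 fell and 5 rose in MC38, and 1 fell and 4 rose in LLC. Rbl2, a pocket protein that represses E2F targets in quiescent cells, averaged 41.2 ± 1.16 CPM in sildenafil and 23.3 ± 0.278 CPM in control libraries of 4T1, rose by 0.82 ± 0.0414 (adjusted p = 1.34e-09), and rose by 0.26 ± 0.0358 in MC38. E2f4 fell by 0.69 ± 0.0287 and E2f7 fell by 0.91 ± 0.0442 in 4T1. Among G1 and S cyclins, kinases and inhibitors, 9 of 16 measured genes fell and 4 rose in 4T1, 7 of 17 fell and 3 rose in MC38, and 3 of 16 fell and 5 rose in LLC. Ccnd1, the cyclin of CDK4 and CDK6 in G1, averaged 716 ± 7.53 CPM in sildenafil and 1208 ± 40.8 CPM in control libraries of 4T1, and fell by 0.76 ± 0.0316 (adjusted p = 2.23e-10). It averaged 1015 ± 10.6 CPM in sildenafil and 841 ± 32.4 CPM in control libraries of LLC, and rose by 0.27 ± 0.0509 (adjusted p = 0.00422), the same pair of directions as the 21 genes above. Cdkn1b, a CDK inhibitor, rose by 0.60 ± 0.0297 in 4T1 and rose by 0.32 ± 0.0479 in MC38, and stood at 0.14 ± 0.0487 (adjusted p = 0.0555) in LLC. Cdkn1a, the p53-responsive CDK inhibitor, averaged 24.7 ± 0.356 CPM in sildenafil and 19.4 ± 0.337 CPM in control libraries of 4T1, and rose by 0.35 ± 0.0444 (adjusted p = 1.15e-05). It averaged 5.2 ± 0.458 CPM in sildenafil and 2.25 ± 0.0454 CPM in control libraries of MC38, and rose by 1.21 ± 0.124 (adjusted p = 2.09e-06). In LLC it averaged 5.19 ± 0.0863 CPM in sildenafil and 10.7 ± 1.78 CPM in control libraries, and fell by 1.05 ± 0.126 (adjusted p = 0.000402). The difference of LLC from 4T1 was -1.39 ± 0.12 (adjusted p = 3.27e-09) and that of LLC from MC38 -2.24 ± 0.15 (adjusted p = 3.02e-10). Myc, a driver of growth genes, fell by 1.22 ± 0.0279 (adjusted p = 1.41e-12) in 4T1, fell by 0.19 ± 0.0472 (adjusted p = 0.00593) in MC38 and fell by 0.51 ± 0.0937 (adjusted p = 0.00668) in LLC.

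Later parts of the cell cycle were counted in the same way. Of 9 replication checkpoint genes 8 fell in 4T1, 1 rose and 1 fell in MC38, and 2 fell in LLC. Chek1, the checkpoint kinase of stalled forks, fell by 0.64 ± 0.0387 (adjusted p = 7.11e-09) in 4T1 and stood at 0.083 ± 0.0469 (adjusted p = 0.208) in LLC. Hus1, a subunit of the checkpoint clamp, fell by 0.57 ± 0.0382 in 4T1, fell by 0.16 ± 0.046 in MC38 and fell by 0.25 ± 0.0512 in LLC, and Rad9a of the same clamp fell by 0.55 ± 0.034 in 4T1 and rose by 0.18 ± 0.0467 in MC38. Of 20 mitosis genes 14 fell and 2 rose in 4T1, 10 fell in MC38, and 2 fell and 0 rose in LLC (edgeR; 6 and 1 at an unadjusted p under 0.05, 3 and 0 with DESeq2). Their median log2 fold change was -0.17 in 4T1, -0.11 in MC38 and -0.011 in LLC, beside -0.35, 0.007 and 0.15 for the 47 genes. Cdc20, an activator of the anaphase-promoting complex, fell by 0.21 ± 0.0303 in 4T1 and fell by 0.29 ± 0.0344 in MC38, and stood at 0.066 ± 0.0429 (adjusted p = 0.269) in LLC. The mitotic kinase gene Aurka fell by 0.31 ± 0.0383 in 4T1 and fell by 0.20 ± 0.0333 in MC38. Foxm1, a transcription factor of mitotic genes, fell by 0.31 ± 0.0317 in 4T1 and was called in no other line.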

How the data were processed

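RNA was measured in 18 libraries of 3 mouse cell lines, prepared with a stranded polyA kit per the labels' protocols. The authors deposited expected counts for each gene, as RSEM gives them. The tools named, per the submitters' processing notes, are STAR 2.7.0f, RSEM 1.3.1, cutadapt 1.18 and bcl2fastq 2.17, with genome build mm10. Neither the annotation release nor the strand setting of the counting is given in the sources, and reads of genes that overlap on opposite strands may not have been told apart. All 55450 identifiers and symbols matched GENCODE release M21, from which positions and lengths were taken. Between 4.3% and 6.91% of values in a library were not whole.

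Expected counts were rounded to whole numbers. The treatment was tested line by line (6 libraries, 4 residual degrees of freedom) by the robust quasi-likelihood test of edgeR 4.0.16 under R 4.3.3, after the default expression filter and TMM scaling. Differences in response between lines and baseline differences were tested on all 18 libraries (12 residual degrees of freedom). Benjamini-Hochberg adjustment ran over all genes tested, calls needed an adjusted p under 0.05, and the standard error is the log2 fold change divided by the square root of F. Alternatives were DESeq2 1.42.0, RLE size factors, library totals alone, no filter, a filter of 5 CPM in 3 libraries, protein-coding genes only, the replicate number as a block, all 18 libraries in 1 fit, only the compared lines, a covariate for the Gm26917 level, and each library left out.

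The 47 genes, the pathway lists and the alternatives were chosen with earlier results of these data known. All members are named. Given by library are up to 2 of each role by the largest change and up to 4 called in opposite directions in 2 lines by the largest tested difference. Also named are up to 3 genes of each pathway list by smallest adjusted p, with Ccnd1, Cdkn1a, Cdkn1b and Myc whatever their values. One gene that this rule names is not reported here. A symbol with several identifiers was represented by the one with the highest total. Promoter windows are those of RefSeq for GRCm38.p6. Plots were drawn with matplotlib 3.10.9.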

Additional observations from a re-analysis of the deposited data

Results flagged for a closer look

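Effects of sildenafil that differed between lines were singled out where the difference itself passed the edgeR test (adjusted over all genes) for a count of members, or where a member was called in opposite directions and the difference was also called. The counts were 44 genes for LLC against 4T1, 36 for MC38 against 4T1 and 23 for LLC against MC38. LLC was treated for 48 hours and the others for 24 hours, so line and time cannot be told apart, and p-values measure the spread between libraries.

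Between LLC and 4T1 the difference in log2 fold change among the helicase and origin genes was 0.62 for Mcm4, 0.72 for Mcm5, 0.55 for Mcm6, 0.57 for Mcm7, 0.43 for Orc6, 1.22 for Cdc6, 0.60 for Mcm10 and 0.53 for Gins2. At the fork it was 0.26 for Prim2, 0.40 for Pcna, 0.36 for Rfc2, 0.66 for Rfc5, 0.46 for Rpa1, 0.95 for Rpa2 and 0.63 for Fen1. For the remaining genes it was 0.74 for Tk1, 0.62 for Ccne1, 0.63 for Ccne2, 0.67 for Uhrf1, 0.56 for Chaf1a and 0.47 for Chaf1b. Each of these genes fell in 4T1 and rose in LLC. Only Cdc6, Gins2, Rfc5, Rpa1, Rpa2, Fen1, Ccne1, Uhrf1 and Chaf1a kept both calls whichever library was left out.

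Between MC38 and 4T1 the difference was 0.20 for Pcna and 0.37 for E2f1, which fell in 4T1 and rose in MC38. The Pcna difference was lost without 4T1 sildenafil replicate 3, 4T1 control replicate 2 or 3, MC38 sildenafil replicate 1 or MC38 control replicate 3. Between LLC and MC38 the difference was 0.31 for Mcm5, 0.25 for Mcm6, 0.36 for Rfc5 and 0.62 for Ccne1, which fell in MC38 and rose in LLC. Of these only Ccne1 kept both calls whichever library was left out, and DESeq2 did not call Rfc5 lower in MC38.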

How the results depend on the processing

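The count of members changed in MC38, 10, was 6 with DESeq2, 2 with all 18 libraries in 1 fit and 1 with a covariate for the Gm26917 level. In LLC, 26 became 11 with that covariate. Over all genes the covariate took the calls from 5047 to 923 in MC38 and from 3702 to 2208 in LLC. Leaving out 1 library gave between 39 and 43 calls for 4T1, between 5 and 10 for MC38 and between 11 and 34 for LLC, with 33 to 37 for MC38 against 4T1, 42 to 44 for LLC against 4T1 and 17 to 26 for LLC against MC38. At baseline it gave 41 to 42 for 4T1 against MC38, 39 to 41 for 4T1 against LLC and 33 to 34 for MC38 against LLC. With the replicate number as a block the counts were 42 in 4T1, 15 in MC38 (6 up, 9 down) and 24 in LLC. Over all genes, 9090, 5867 and 4078 were then called, against 9285, 5047 and 3702 without the block. Sildenafil and control libraries of the same number deviated together weakly at most (correlations from -0.0151 to 0.144). For libraries of different numbers the correlations ran from -0.116 to 0.0663. Whether the numbers pair the libraries cannot be told from these values, and the main tests took them as unpaired. Reversed values were Pcna in MC38 with the Gm26917 covariate (-0.032, adjusted p = 0.841) and these baseline differences: Chaf1b in 4T1 against LLC with the stricter filter (-0.14), Pola2 in 4T1 against MC38 with it (-0.0045), and Mcm7 in 4T1 against LLC with DESeq2 (-0.075), RLE size factors (-0.083), the stricter filter (-0.14) and protein-coding genes only (-0.083). The causes were not tested. Library totals alone moved the median of all genes to 0.07 in 4T1, where the members' median was then -0.28, with 2 genes higher and 38 lower. The precision is limited by 3 libraries per group.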
